A study of Canis lupus familiaris with 12 samples.

Results

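The genes described here are 9 drug and steroid metabolising enzymes of the dog, measured in the oral melanoma line Mi/CMM1. They are the cytochrome P450 genes CYP3A12, CYP3A26, CYP1A2, CYP2B11, CYP2D15 and CYP2E1, the sulfotransferase SULT1A1, the cytochrome b5 reductase CYB5R3 and the hydroxysteroid dehydrogenase HSD17B14. They were taken by gene name, and every probe whose annotation gives a dog RefSeq transcript of one of them was used, which made 13 probes. All 9 were on the array, of 832 genes that could be named there. One-colour Agilent arrays measured total RNA of cells given piroxicam, carprofen or robenacoxib, which are nonsteroidal anti-inflammatory drugs, and of untreated control cells, with 3 arrays in each of the 4 groups. All groups were the same cell line in the same serum-supplemented medium, and the control carried no treatment, with no vehicle named. Dose and time are on record in more than 1 version. For piroxicam the sample labels say 116 µM and the treatment protocol 779 µM, for carprofen the sample labels say 779 µM and the protocol 116 µM, and for robenacoxib both say 156 µM. Exposure lasted 6 h by the sample labels and 24 h by the protocol. No drug pair was given at one dose in either version.

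Cytochrome P450 enzymes are haem proteins of the endoplasmic reticulum that oxidise drugs, steroids and other small lipophilic molecules, which is called phase I of drug metabolism. Electrons reach them from NADPH through a reductase, and in part through cytochrome b5, which CYB5R3 reduces with NADH. Conjugating enzymes such as the sulfotransferases then attach a polar group, which is phase II. These enzymes are most abundant in liver and gut, and several are induced by drugs through nuclear receptors there. Hydroxysteroid dehydrogenases interconvert the hydroxyl and keto forms of steroids and so set how much active hormone a tissue holds.

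Between 66.2% of the spots (piroxicam 3) and 80% (carprofen 2) were well above background, and 31996 of 43603 probes were tested. The arrays lay on 3 slides, each scanned as a unit: carprofen 1 and all controls were on slide 1, piroxicam 1 and 2 with carprofen 2 and 3 on slide 2, and piroxicam 3 with all robenacoxib arrays on slide 3. Piroxicam and robenacoxib shared no slide with control, so values from a fit with slide as a block are given beside the changes. For those 2 drugs the block reaches control only through carprofen 1. Robenacoxib reaches it only through piroxicam 3 as well. Blocked changes with robenacoxib are therefore less precise, with an SE for CYP3A12 of 0.2 against 0.11 without the block. The labelled origin was checked on 4 melanocyte markers that the array names. MITF and SLC45A2 were well above background on 12 arrays, KIT on 4 and TYR, the key enzyme of pigment synthesis, on 0. MITF lay at 61.1% to 73.1% of an array's 75th percentile and SLC45A2 at 2.23% to 3.71%, about as low as the hepatocyte markers given below. The summed signal of the 4, as a percentage of an array's 75th percentile, was 70.3% to 74.2% with piroxicam, 66% to 68.8% with carprofen, 76.1% to 77.1% with robenacoxib and 71.6% to 73.7% in control, and MITF passed the test as lower with carprofen (log2 change -0.13, adjusted p = 0.00797). Of the hepatocyte markers, SERPINA1 and F9 were named and both were well above background on 12 arrays, at 1.46% to 3.47% of that percentile, and their summed signal was 4.35% to 5.63% with piroxicam, 3.96% to 5.6% with carprofen, 4.19% to 5.01% with robenacoxib and 3.84% to 5.06% in control. All 3 fibroblast markers named (COL1A1, COL1A2 and DCN) were well above background on 12 arrays, and their summed signal was 6870% to 7220% with piroxicam, 6490% to 6860% with carprofen, 7050% to 7150% with robenacoxib and 7420% to 7650% in control. That sum is almost wholly the collagens, with COL1A2 at 5580% to 6590% and COL1A1 at 909% to 1100%. DCN lay at only 1.75% to 2.94%, as low as the hepatocyte markers. COL1A1 passed as lower with carprofen (-0.19, adjusted p = 0.00156) and robenacoxib (-0.12, adjusted p = 0.019). COL1A2 did with piroxicam (-0.1, adjusted p = 0.0413) and carprofen (-0.16, adjusted p = 0.00394). DCN did with piroxicam (-0.42, adjusted p = 0.0174) and robenacoxib (-0.35, adjusted p = 0.0447). In the blocked fit only COL1A1 with carprofen passed among them (-0.14, adjusted p = 0.0464). Of 3 keratinocyte markers, KRT1 and DSG3 were well above background on 0 arrays, and the sum with TGM1 was 6.35% to 7.23% with piroxicam, 14.5% to 15.8% with carprofen, 11% to 11.5% with robenacoxib and 9.43% to 11% in control. TGM1 passed as lower with piroxicam (-0.61, adjusted p = 0.000206) and as higher with carprofen (0.6, adjusted p = 0.000196). Blocking on slide gave -0.47 (adjusted p = 0.0761) and 0.68 (adjusted p = 0.00427), so the rise with carprofen passed there too. The leukocyte markers CD4 and CD8A were well above background on 12 arrays, with sums of 10% to 10.4% with piroxicam, 9.7% to 11.6% with carprofen and 7.02% to 11.1% with robenacoxib, and in control they began at 7.93% and ended between the highest piroxicam and the highest robenacoxib array. Of the endothelial markers, VWF was well above background on 12 arrays and KDR on 0, and their sum was 128% to 145% with piroxicam, 129% to 146% with carprofen, 121% to 139% with robenacoxib and 126% to 133% in control. The part of these markers in the results below was not tested. In RNA of a whole culture, fewer cells of a type and less RNA per cell cannot be told apart.

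The 9 genes split into 7 with a probe well above background on every array and 2 with none on any array. Of the 13 probes, 8 exceeded background clearly on each of the 12 arrays and were tested, and they read HSD17B14 (2 probes), CYP3A12, CYP2D15, CYP1A2, CYP2B11, SULT1A1 and CYB5R3. The other 5 were well above background on 0 arrays in any group. These were the probe of CYP3A26, a second dog CYP3A and a close copy of CYP3A12, the 3 probes of CYP2E1, which oxidises ethanol and small solvents, and the second probe of CYP1A2. The processed signal of the CYP3A26 probe was 3.09 to 9.31 over the arrays, and those of the CYP2E1 probes were 3.11 to 7.09, 2.76 to 7.35 and 2.82 to 9.98. The lowest signal of any probe well above background was 13.1 to 28.5, depending on the array. All 4 of these probes lay below it on every array, so no fold change is given for either gene. Being well above background does not by itself show expression. The hepatocyte markers SERPINA1 and F9 and the leukocyte markers CD4 and CD8A passed that mark on 12 arrays too. Their signals were 1.46% to 8.53% of the 75th percentile. No array exceeded that range for CYP3A12, CYP2D15, CYP1A2 probe 1 or HSD17B14 probe 2. CYP2B11 straddled its upper end, and SULT1A1, CYB5R3 and HSD17B14 probe 1 lay above it. Whether each signal came from the named transcript was not tested.

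**Figure D1:**
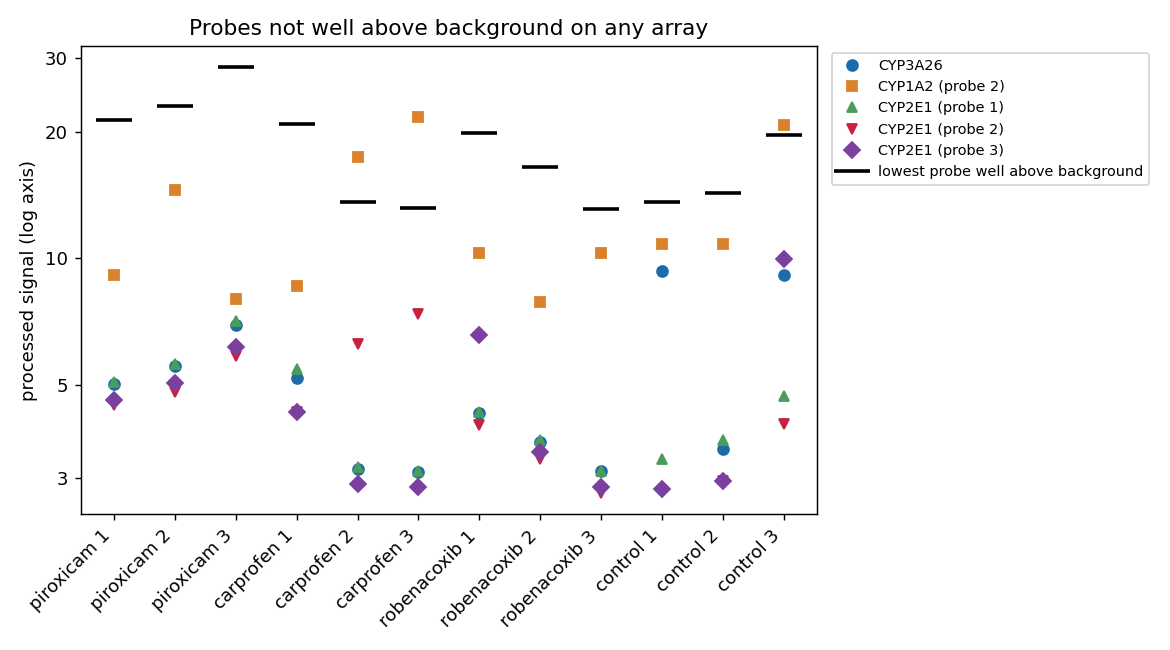
Processed signal (log axis) of the 5 probes that were well above background on no array, on each of the 12 arrays, with the lowest signal of any probe well above background on that array as a black bar. The CYP3A26 and CYP2E1 probes lie below the bar on every array, and CYP1A2 probe 2, a mean over 5 spots, lies above it on carprofen 2, carprofen 3 and control 3.

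CYP1A2, which oxidises caffeine and planar aromatic molecules and is a classic target of the aryl hydrocarbon receptor, was read differently by its 2 probes. The second probe is printed in 5 spots and its averaged signal was 7.86 to 21.7. On 5 arrays at least 1 of its spots was well above background, and no array had more than 4 such spots. The first probe was well above background on all 12 arrays but varied more between arrays than the other tested probes, with an SE of 0.31 for a log2 difference. Its signal, as a percentage of the array's 75th percentile, was 1.37%, 1.67% and 1.51% with piroxicam, 1.69%, 1.86% and 1.37% with carprofen, 1.4%, 1.61% and 0.684% with robenacoxib, and 1.61%, 1.34% and 2.28% in control. Every drug group overlapped the controls, and robenacoxib 3 lay lowest of the 12 arrays. The log2 differences from control were -0.17 with piroxicam, -0.07 with carprofen and -0.56 with robenacoxib, with 95% intervals of -0.87 to 0.52, -0.76 to 0.63 and -1.25 to 0.14. No difference passed the test, and every interval holds both a rise and a fall. In the slide-blocked fit the differences were -0.09, -0.01 and -0.48, and again none passed.

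HSD17B14 had the smallest adjusted p of the members with each drug. It is a short-chain dehydrogenase that in humans oxidises the hydroxyl group of estradiol in enzyme assays. Probe 1, the brighter one, read 29.6%, 28.1% and 28.3% of the 75th percentile with piroxicam, 31.8%, 33.6% and 31.6% with carprofen, 31.5%, 32.3% and 31% with robenacoxib, and 24.4%, 24.9% and 25.5% in control. All 9 drug-treated arrays lay above all 3 controls, and the carprofen and robenacoxib arrays lay above the piroxicam arrays too. The means were 28.7% ± 0.824 with piroxicam, 32.3% ± 1.1 with carprofen and 31.6% ± 0.641 with robenacoxib, against 24.9% ± 0.534 in control (SD, n = 3 each).

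On the log2 scale HSD17B14 probe 1 rose by 0.20 with piroxicam (SE 0.03, adjusted p = 0.00234 in limma), by 0.38 with carprofen (SE 0.03, adjusted p = 6.72e-05) and by 0.34 with robenacoxib (SE 0.03, adjusted p = 0.000178). These are 1.15-fold, 1.3-fold and 1.27-fold higher signals. With slide as a block the change with carprofen was 0.35 and passed (adjusted p = 0.0057), whereas those with piroxicam (0.17, adjusted p = 0.189) and robenacoxib (0.33, adjusted p = 0.124) did not pass. That blocked value is set by carprofen 1, the drug-treated array on the slide of the controls. A fit on slide 1 alone, 1 array against 3, holds the same contrast (0.35, adjusted p = 0.0723) and called 0.00313% of all probes, so it is no separate support. Leaving out any one array left all 3 changes past the threshold, at 0.18 to 0.22, 0.35 to 0.39 and 0.33 to 0.36.

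HSD17B14 probe 2 was dimmer and moved less evenly. It read 3.05%, 3.69% and 3.3% with piroxicam, 4.14%, 3.94% and 3.74% with carprofen, 4.07%, 3.89% and 3.88% with robenacoxib, and 3.12%, 3.08% and 3.47% in control. The carprofen and robenacoxib arrays lay above all controls, while 1 piroxicam array lay below all controls, 1 above all and 1 among them. The rises were 0.29 with carprofen (SE 0.07, adjusted p = 0.0138) and 0.29 with robenacoxib (SE 0.07, adjusted p = 0.0197), and the difference with piroxicam was 0.05 (95% interval -0.11 to 0.22, adjusted p = 0.64). That interval holds the 0.20 of probe 1, and blocking on slide gave 0.17 for piroxicam on both probes. Neither rise passed in the fit that holds slide constant (0.36, adjusted p = 0.0622, for carprofen and 0.43, adjusted p = 0.31, for robenacoxib). Leaving out control 2 lost the rise with carprofen (adjusted p = 0.0529), and leaving out control 1, control 2 or robenacoxib 1 lost that with robenacoxib (adjusted p of up to 0.0719). Normexp correction of the background gave 0.05 with carprofen and 0.23 with robenacoxib under 75th percentile scaling, and 0.05 and 0.10 under quantile normalization. In the authors' deposited values they were 0.07 and 0.15, and none of these 6 passed. With piroxicam the same settings, in that order, gave -0.07, -0.05 and -0.07 on probe 2, and none passed. On probe 1 they gave 0.22, 0.22 and 0.24, so the probes differed in sign there. Quantile normalization of the processed signal lost the rise with carprofen as well (0.20, adjusted p = 0.0799).

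**Figure D2:**
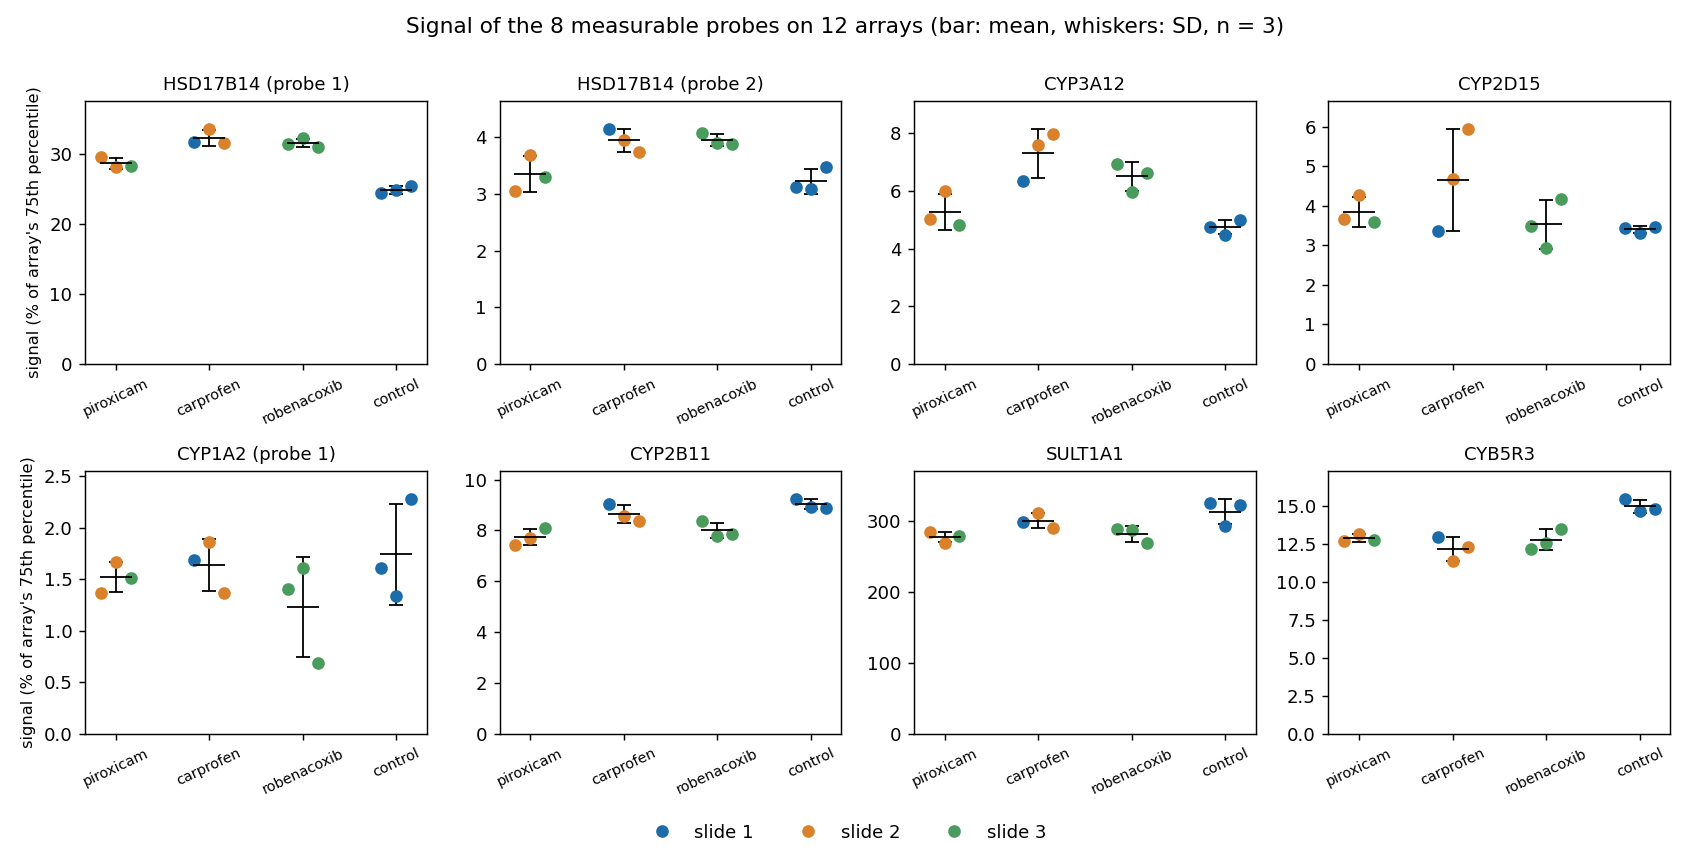
Signal of the 8 tested probes on each of the 12 arrays, as a percentage of the array's 75th percentile signal, with the group mean and SD (n = 3) and points coloured by slide. HSD17B14 probe 1 is higher on all 9 drug-treated arrays than on the 3 controls, and CYB5R3 is lower on all 9.

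CYP3A12 is the dog's principal liver CYP3A enzyme and hydroxylates steroids such as testosterone and many drugs. It read 5.02%, 5.99% and 4.83% with piroxicam, 6.35%, 7.59% and 7.96% with carprofen, 6.93%, 5.96% and 6.62% with robenacoxib, and 4.76%, 4.48% and 4.99% in control. The carprofen and robenacoxib arrays lay above every control, and the piroxicam arrays overlapped them. CYP3A12 rose by 0.62 with carprofen (SE 0.11, adjusted p = 0.00214, 1.53-fold) and by 0.45 with robenacoxib (SE 0.11, adjusted p = 0.0147, 1.37-fold). With piroxicam the difference was 0.15 (95% interval -0.09 to 0.39, adjusted p = 0.326). Blocking on slide gave 0.42 with carprofen (adjusted p = 0.051) and 0.34 with robenacoxib (adjusted p = 0.451), and neither passed, and the difference with piroxicam was then -0.08. The rise with robenacoxib missed the threshold without control 2, at an adjusted p of 0.0561. From high to low the order was carprofen, robenacoxib, piroxicam and control, and no neighbours in that order differed past the threshold.

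CYP2D15 is the dog counterpart of human CYP2D6, which oxidises basic drugs such as dextromethorphan. It read 3.66%, 4.27% and 3.59% with piroxicam, 3.35%, 4.68% and 5.93% with carprofen, 3.49%, 2.94% and 4.18% with robenacoxib, and 3.43%, 3.31% and 3.46% in control. The controls lay close together, and carprofen 1 lay among them while carprofen 2 and 3 lay above all of them. The log2 differences were 0.17 with piroxicam (adjusted p = 0.546), 0.41 with carprofen (adjusted p = 0.136) and 0.04 with robenacoxib (adjusted p = 0.915), and none passed. Without carprofen 1 the difference with carprofen was 0.63 and passed (adjusted p = 0.0146), and with slide as a block, which sets carprofen 1 alone against the controls, it was -0.02. The blocked differences with piroxicam and robenacoxib were -0.44 and -0.47, opposite in sign to the unblocked ones, and neither passed. Carprofen 1 also had the lowest CYP3A12 signal of its group, but the highest of HSD17B14 probe 2, CYP2B11 and CYB5R3. It had 70.6% of its spots well above background, against 80% and 79.6% for carprofen 2 and 3, and lay on another slide. The part of either in these values was not tested.

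CYP2B11 fell with 2 of the drugs. It is the dog's CYP2B enzyme, which hydroxylates the anaesthetic propofol and in liver is induced by barbiturates, and the annotation used here lists it as CYP2B6 with CYP2B11 as a synonym. It read 7.43%, 7.7% and 8.08% with piroxicam, 9.05%, 8.57% and 8.36% with carprofen, 8.36%, 7.79% and 7.85% with robenacoxib, and 9.25%, 8.94% and 8.89% in control. The piroxicam and robenacoxib arrays lay below every control, and the carprofen arrays reached into the controls. CYP2B11 fell by 0.22 with piroxicam (SE 0.04, adjusted p = 0.00524, 1.17-fold lower) and by 0.17 with robenacoxib (SE 0.04, adjusted p = 0.0205, 1.13-fold lower), and with carprofen the difference was -0.06 (95% interval -0.16 to 0.04, adjusted p = 0.339). When slide was a block, piroxicam gave -0.16 (adjusted p = 0.221), robenacoxib -0.17 (adjusted p = 0.371) and carprofen 0.00, and none passed. The fall with robenacoxib also missed the threshold without control 1, control 2, robenacoxib 2 or robenacoxib 3, at adjusted p-values of up to 0.0723. It was -0.07 under normexp with 75th percentile scaling (adjusted p = 0.584) and -0.19 under quantile normalization of the processed signal (adjusted p = 0.0641). With piroxicam the first of these settings gave -0.23 and also missed the threshold (adjusted p = 0.0744).

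SULT1A1, which sulfates phenols such as paracetamol and phenolic hormones, lay above the 75th percentile on every array. Its probe read 285%, 270% and 279% of the 75th percentile with piroxicam, 299%, 312% and 291% with carprofen, 290%, 288% and 269% with robenacoxib, and 326%, 293% and 323% in control. Control 2 lay below the other controls, and the piroxicam and robenacoxib arrays still lay below it. SULT1A1 fell by 0.17 with piroxicam (SE 0.05, adjusted p = 0.0278), while the differences of -0.15 with robenacoxib (adjusted p = 0.0548) and -0.06 with carprofen (adjusted p = 0.401) did not pass. In the slide-blocked fit the changes were -0.19 with piroxicam (adjusted p = 0.337), -0.07 with carprofen and -0.17 with robenacoxib, and none passed. The fall missed the threshold without control 1, control 3, piroxicam 2 or piroxicam 3 (adjusted p of up to 0.0941), and the change was 0.02 in the authors' deposited values (adjusted p = 0.839). Sulfotransferase genes of this family are close copies of each other, as are the CYP3A genes, and binding of their transcripts to these probes was not tested.

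CYB5R3, the reductase that passes electrons from NADH to cytochrome b5, passed the test as lower with all 3 drugs under 75th percentile scaling. It read 12.7%, 13.2% and 12.8% with piroxicam, 13%, 11.4% and 12.3% with carprofen, 12.2%, 12.6% and 13.5% with robenacoxib, and 15.5%, 14.7% and 14.8% in control. No drug-treated array reached the lowest control. CYB5R3 fell by 0.21 with piroxicam (SE 0.05, adjusted p = 0.0158, 1.16-fold lower), by 0.30 with carprofen (SE 0.05, adjusted p = 0.0027, 1.23-fold lower) and by 0.23 with robenacoxib (SE 0.05, adjusted p = 0.0135, 1.18-fold lower). With slide as a block the changes were -0.07 (adjusted p = 0.698), -0.21 (adjusted p = 0.0857) and -0.08 (adjusted p = 0.811), and none passed. The blocked falls with piroxicam and robenacoxib were smaller, but their SEs were 0.09 and 0.12, against 0.05 without the block. They are too imprecise to tell whether the fall was lost. Without control 1 the changes with piroxicam and robenacoxib missed the threshold, as did that with piroxicam without piroxicam 1, at adjusted p-values of up to 0.0579. Both also missed it without control 3 and piroxicam 3 together (adjusted p = 0.0904 and 0.0512). Under normexp with 75th percentile scaling the change with robenacoxib was -0.24 and did not pass (adjusted p = 0.0885). The fall with carprofen passed in these last settings (adjusted p = 0.0158 and 0.024).

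**Figure D3:**
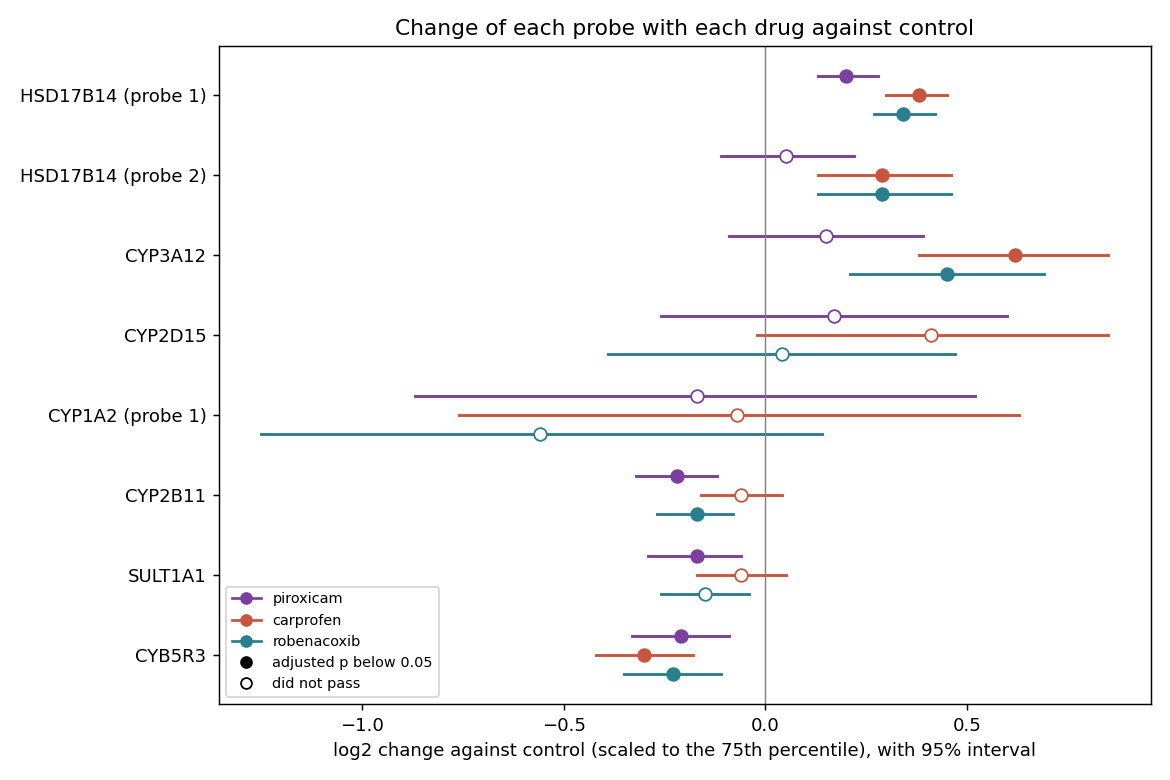
Log2 change of each tested probe with each drug against control, with its 95% interval from limma; filled points passed an adjusted p of 0.05. HSD17B14 probe 1 is higher and CYB5R3 lower with all 3 drugs, CYP3A12 is higher with carprofen and robenacoxib, and the intervals of CYP2D15 and CYP1A2 include 0.

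Counted together, 6 of the 8 probes, from 5 of the 7 genes, passed the F-test over the 3 drugs, against 48% of all tested probes. With piroxicam, 1 probe was higher and 3 were lower (28% of all tested probes were called, 11.9% higher and 16.1% lower). With carprofen, 3 were higher and 1 lower (32.8% called, 13.3% higher and 19.5% lower), and with robenacoxib 3 were higher and 2 lower (22.2% called, 9.57% higher and 12.6% lower). After blocking on slide, 0 of 8 were called with piroxicam (5.09% of all probes, 2.52% higher and 2.58% lower), 1 was higher with carprofen (16.4% of all probes, 7.71% higher and 8.64% lower) and 0 were called with robenacoxib (1.41% of all probes, 1.02% higher and 0.388% lower). Groups did not overlap for 5, 4 and 6 of the 8 probes, against 47.8%, 47.1% and 41.6% of all probes. For piroxicam the median log2 change over the 8 probes was -0.06, against -0.02 over all tested probes, for carprofen 0.11 against -0.02, and for robenacoxib -0.05 against -0.03. The 3 comparisons share their control arrays.

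The scale of the arrays set the direction of several changes. Scaling to the 8 spiked-in transcript probes in place of the 75th percentile added 0.175 to every log2 change with piroxicam, 0.344 with carprofen and 0.3 with robenacoxib, and the medians over all probes became 0.152, 0.322 and 0.27. On that scale HSD17B14 probe 1 was higher by 0.38, 0.72 and 0.64 with piroxicam, carprofen and robenacoxib, and CYP3A12 by 0.32, 0.96 and 0.75, all past the threshold, and since the scaling adds a positive constant, no rise could turn under it. CYB5R3 kept its sign with piroxicam (-0.04) and turned with carprofen (0.05) and robenacoxib (0.07), and it did not pass with any drug. CYP2B11 was -0.05 with piroxicam and did not pass, and was higher with carprofen (0.28, adjusted p = 0.000287) and robenacoxib (0.13, adjusted p = 0.0261). SULT1A1 was 0 with piroxicam (adjusted p = 0.997) and higher with carprofen (0.28, adjusted p = 0.00053) and robenacoxib (0.15, adjusted p = 0.0204). The called members were then 3 higher with piroxicam (43% of all probes were called, 40% higher and 2.98% lower), 6 higher with carprofen (75.5% called, 75.3% higher and 0.25% lower) and 5 higher with robenacoxib (68.2% called, 67.8% higher and 0.472% lower), and 0 lower with any drug. Most calls over all probes were thus rises on that scale too.

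**Figure D4:**
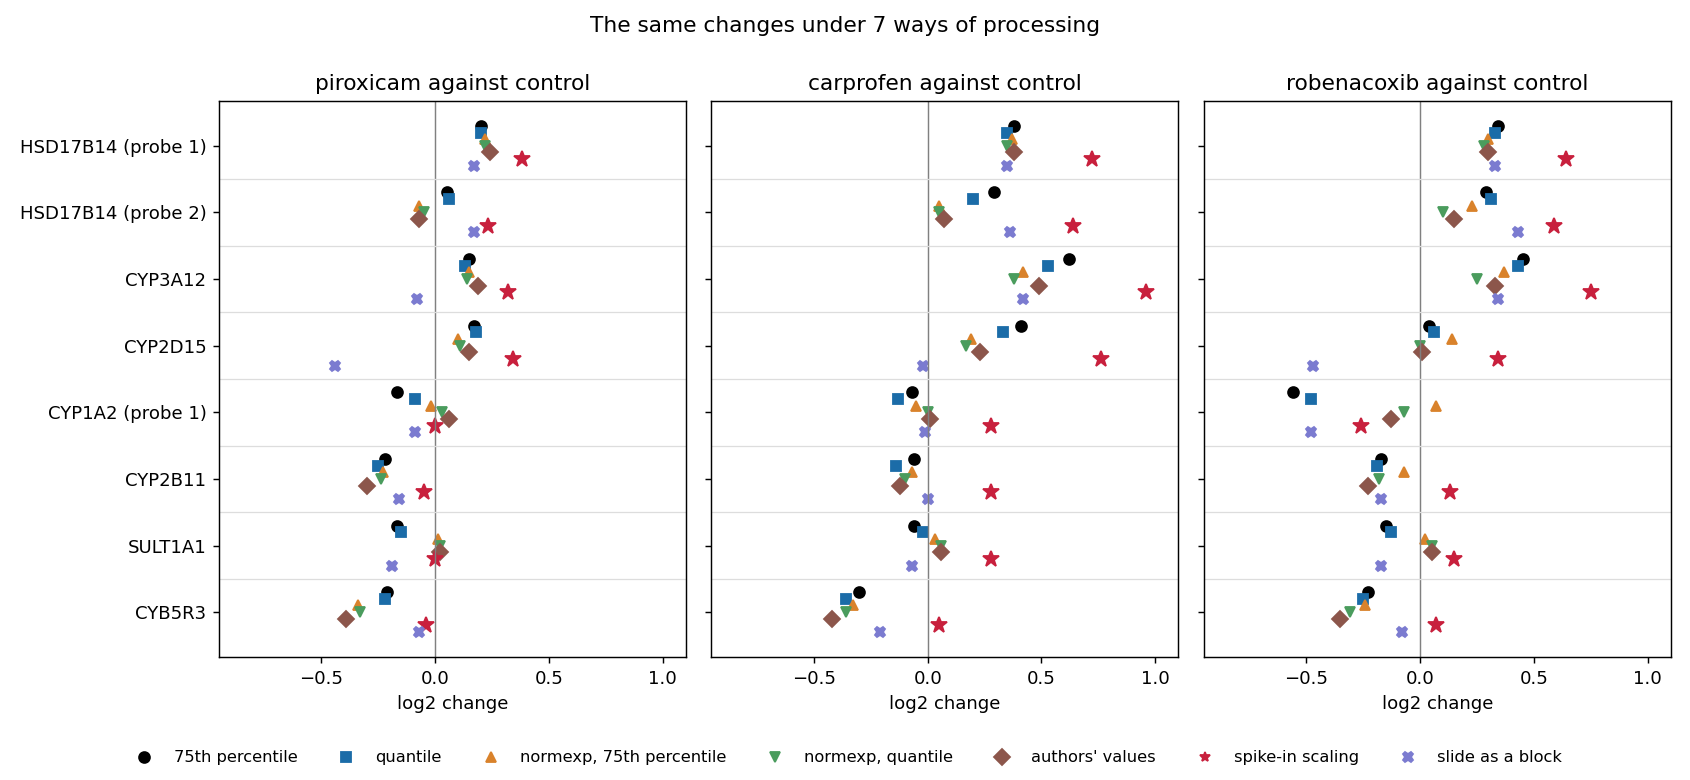
Log2 change of each tested probe with each drug against control under 7 ways of processing, one symbol each. HSD17B14 probe 1 stays above 0 under all 7 with all 3 drugs, CYP3A12 stays above 0 with carprofen and robenacoxib, and CYB5R3, CYP2B11 and SULT1A1 lie further right under spike-in scaling than under 75th percentile scaling.

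The drugs were also set against each other, at doses that differ in both versions of the labels, so the values describe these cultures and not the compounds at equal dose. Carprofen is an arylpropionic acid, robenacoxib an arylacetic acid and piroxicam an oxicam. Carprofen against piroxicam gave 4 higher probes of 8 (37.5% of all probes were called, 18.6% higher and 18.9% lower): CYP3A12 by 0.47 (SE 0.11, adjusted p = 0.0068), CYP2B11 by 0.16 (SE 0.04, adjusted p = 0.0159), and HSD17B14 by 0.17 on probe 1 (SE 0.03, adjusted p = 0.00303) and 0.24 on probe 2 (SE 0.07, adjusted p = 0.0279). These groups share slide 2, and 3 of the 8 passed in the slide-blocked fit (30.4% of all probes, 14.6% higher and 15.8% lower): CYP3A12 (0.50, adjusted p = 0.00891), CYP2B11 (0.16, adjusted p = 0.0273) and HSD17B14 probe 1 (0.18, adjusted p = 0.0199). Within slide 2 alone, with 2 arrays a group, 0 of 8 passed, against 14.2% of all probes. CYP3A12 was the 1 probe of 8 to pass under both normexp settings (0.27 and 0.24) and in the authors' deposited values (0.31). CYP2B11 missed the threshold without piroxicam 1 or carprofen 1 (adjusted p of up to 0.0608), and HSD17B14 probe 2 without piroxicam 1, piroxicam 3, carprofen 1 or carprofen 2 (adjusted p of up to 0.0949).

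Robenacoxib against piroxicam gave 2 higher probes of 8 (27.1% of all probes were called, 13.9% higher and 13.2% lower), both of HSD17B14, by 0.14 on probe 1 (SE 0.03, adjusted p = 0.0136) and 0.24 on probe 2 (SE 0.07, adjusted p = 0.0358). Probe 1 missed the threshold without robenacoxib 2 (adjusted p = 0.0516) and in the slide-blocked fit (adjusted p = 0.0743). It was 0.09 and 0.05 under the normexp settings and 0.06 in the authors' deposited values (adjusted p of up to 0.537), and did not pass. Within slide 3, with 1 piroxicam array, 0 of 8 were called, as were 0% of all probes. Probe 2 missed it without piroxicam 1, piroxicam 3, carprofen 2 or any one of the robenacoxib arrays, at adjusted p-values of up to 0.116, and it also missed it under the normexp settings (0.29 and 0.15) and in the authors' deposited values (0.22). CYP3A12 was 0.30 higher with robenacoxib and did not pass (adjusted p = 0.0617), but passed without piroxicam 2 and without carprofen 1. It also passed in the slide-blocked fit (0.42, adjusted p = 0.046), as the 1 probe of 8 called (18.3% of all probes, 10.6% higher and 7.73% lower). That blocked difference is set by piroxicam 3 alone, the 1 piroxicam array on slide 3. Piroxicam 3 had the lowest CYP3A12 signal of its group, so the blocked value is no separate support.

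Robenacoxib against carprofen gave 0 called probes of 8 in limma (8.15% of all probes were called, 4.42% higher and 3.74% lower), and CYP2B11 alone had an unadjusted p under 0.05, at 0.0278. The 95% interval of the difference was -0.11 to 0.04 for HSD17B14 probe 1, -0.4 to 0.07 for CYP3A12, -0.21 to -0.02 for CYP2B11 and -0.06 to 0.18 for CYB5R3. It was -0.16 to 0.17 for HSD17B14 probe 2 and -0.2 to 0.02 for SULT1A1. The widest were -1.19 to 0.2 for CYP1A2 and -0.81 to 0.06 for CYP2D15. The slide-blocked fit also called 0 of 8 (0.253% of all probes, 0.128% higher and 0.125% lower). Groups did not overlap for 5 probes between carprofen and piroxicam, 2 between robenacoxib and piroxicam and 2 between robenacoxib and carprofen, against 47.2%, 42% and 27.2% of all probes. A difference larger than these bounds was not detected, and the test does not show that the drugs act alike on these genes.

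Of 120 other genes of drug and steroid metabolism, 18 were on the array by name and 8 were tested, so this view of the pathway is thin. Phase I enzymes had 3 tested genes of 8 on the array (CYP2A13, MAOA and MAOB), and 0 were called with any drug. Conjugating enzymes had 3 of 3 (TPMT, UGT1A6 and UGT2B31), and steroid enzymes 2 of 6 (CYP19A1 and CYP21A2). Of the regulators only PPARA was on the array and it was not tested, and of the electron donors and cytochrome b5 genes 0 were on the array by name. Over the 8 tested genes, 1 was higher and 0 were lower with piroxicam, 2 were higher and 0 lower with carprofen, and 0 were called with robenacoxib in limma, where 0 had an unadjusted p under 0.05. For piroxicam their median log2 change was 0.07, for carprofen 0.19 and for robenacoxib 0.03. Over all named genes read in the same way, 27.2% were called with piroxicam (11.2% higher and 16% lower), 35% with carprofen (11.2% higher and 23.8% lower) and 23.6% with robenacoxib (7% higher and 16.6% lower), and the medians were -0.01, -0.04 and -0.05.

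Both tested steroid enzymes passed the test as higher with carprofen in the fit without a slide block. CYP19A1, the aromatase that makes oestrogens from androgens, read 2.44%, 2.83% and 2.99% of the 75th percentile with carprofen, against 2.38%, 2.01% and 2.1% in control, and all carprofen arrays lay above the controls (log2 change 0.35, SE 0.11, adjusted p = 0.0315). CYP21A2, the steroid hydroxylase of cortisol and aldosterone synthesis, read 13.7%, 13.4% and 14.5% with carprofen, against 11.6%, 11.2% and 12.2% in control, again with no overlap (0.25, SE 0.06, adjusted p = 0.0137). With piroxicam the differences were 0.02 and -0.16, and with robenacoxib 0.11 for each, and none passed. The slide-blocked values for carprofen were 0.18 for CYP19A1 (adjusted p = 0.432) and 0.23 for CYP21A2 (adjusted p = 0.113). Carprofen 1 was the lowest of its group for CYP19A1, and carprofen 2 for CYP21A2. On every array CYP19A1 lay within the 1.46% to 8.53% of the hepatocyte and leukocyte markers, and CYP21A2 lay above it. Whether either signal came from the named transcript was not tested.

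Among conjugating enzymes, TPMT, which methylates thiopurine drugs, was the gene that passed with piroxicam. It read 218%, 214% and 225% with piroxicam, against 202%, 199% and 198% in control. No array overlapped, and TPMT rose by 0.13 (SE 0.03, adjusted p = 0.00514). Its slide-blocked change was 0.15 (adjusted p = 0.0897). No pathway gene passed against control with slide as a block.

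Among 611 other named genes, those whose profile over the 12 arrays was nearest to a member's were found by the root mean square difference of log2 values, each gene centred on its own mean. Nearest to HSD17B14 were PKD1 (0.0557), COL7A1 (0.0657) and ATP4A (0.0657), where HSD17B14 itself had a root mean square spread of 0.152. Nearest to CYP3A12, with a spread of 0.268, were EPB41L5 (0.109), KCNA5 (0.12) and CRYGS (0.137). Nearest to CYB5R3, with a spread of 0.124, were NME2 (0.0573), MT1E (0.0589) and DIABLO (0.0646). For CYP2B11 (spread 0.0987) they were PAX6 (0.0408), SLC11A1 (0.0425) and GLUL (0.05), and for SULT1A1 (spread 0.0863) TFPI (0.0483), SELENOM (0.0528) and CCL17 (0.0535). EPB41L5 had changes of 0.26, 0.69 and 0.55 with piroxicam, carprofen and robenacoxib, beside 0.15, 0.62 and 0.45 for CYP3A12. The genes were picked for this likeness, so it carries no test.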

How the data were processed

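RNA of the dog melanoma line Mi/CMM1 was measured on 12 one-colour Agilent arrays, 3 for each of 4 groups. The deposited files hold background-subtracted spot intensity from Feature Extraction 10.7.3.1, per the file headers, without normalization between arrays. A value table deposited by the authors served as an alternative. The authors' deposited values look like log2 signals with a median of 7.67 on every array. They differed by a median of 0.00821 from normexp without an offset followed by quantile normalization. The normexp alternatives reported here add an offset of 50, so they are related to the authors' processing but not the same. The submitters' processing notes name limma 3.24.15. How the table was normalized, and the array's genome build, is not given in those notes.

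Processed intensity was converted to log2 and scaled by subtracting the 75th percentile of each array, with R 4.3.3, limma 3.58.1 and data.table (version 1.17.8). Control and outlier spots were dropped before spots of a probe were averaged. Probes well above background on every array of 1 or more groups were tested, and 0 spots were saturated. One limma model (lmFit, eBayes, 8 residual degrees of freedom) covered all 12 arrays, with two-sided tests and Benjamini-Hochberg adjustment over 31996 probes at a threshold of 0.05. It was tried on simulated arrays with independent noise, no slide effect and known changes added to carprofen, so that trial does not bear on slide. Precision is limited by the number of arrays, with a median standard error of 0.0526 for a log2 change. The series calls the replicates biological but does not say how cultures were separated, so p-values measure the spread between these arrays. RefSeq names were used for 1313 probes (3.01%). Named genes were all members, up to 3 called genes of the other pathway lists per drug, and the 3 genes nearest in profile to each member that passed the F-test. One gene of the pathway lists is not reported here. The members and lists were chosen with earlier results of these data known. Alternatives covered background correction, scaling, filters, slide, replicate block and leaving out arrays. Same-numbered arrays of different groups did not deviate together: over 18 pairs r was -0.45 to 0.2, and 3 pairs exceeded 0.1.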

Additional observations from a re-analysis of the deposited data

How the results depend on the processing

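The number of tested member probes called, of 8, was 6 in the F-test over the drugs, 4 for piroxicam, 4 for carprofen and 5 for robenacoxib against control, 4 for carprofen against piroxicam, 2 for robenacoxib against piroxicam and 0 for robenacoxib against carprofen. With slide as a fixed block they were 3 in the F-test, 0 for piroxicam, 1 for carprofen and 0 for robenacoxib against control, and 1 for robenacoxib against piroxicam. In the same order, that fit called 11626, 1629, 5232, 451 and 5853 of all probes. Within the slide that held both groups, 0 were called for carprofen against control, carprofen against piroxicam and robenacoxib against piroxicam, where 1, 4554 and 0 of all probes were called. With normexp and 75th percentile scaling the counts were 3 in the F-test, 2 for piroxicam and 2 for robenacoxib against control, 1 for carprofen and 0 for robenacoxib against piroxicam. Over all probes that setting called 9585 in the F-test, against 15351 in the reported fit, and 5753 and 4569 for piroxicam and robenacoxib against control, against 8950 and 7106, so fewer calls there were general. For carprofen and robenacoxib against piroxicam it called 6732 and 4657 of all probes, against 11995 and 8665 in the reported fit. Normexp with quantile normalization and the authors' deposited values each gave 1 and 0 for those last comparisons, with carprofen and robenacoxib against piroxicam. Of all probes, the first called 8979 and 6290 there and the second 8649 and 6009. Quantile normalization of the processed signal gave 2 for carprofen against piroxicam (11657 of all probes). For robenacoxib against piroxicam, spike-in scaling gave 5 (11350 of all probes) and no filter on dim probes gave 1 (7237 of all probes). Fits on only the arrays compared gave 2 for carprofen and 1 for robenacoxib against piroxicam (9160 and 6259 of all probes). Without control 3 and piroxicam 3 together, 2 were called for piroxicam against control (4780 of all probes) and 0 for robenacoxib against piroxicam (6386 of all probes).

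Leaving out 1 array at a time gave 5 to 6 in the F-test, 2 to 4 for piroxicam, 3 to 5 for carprofen and 2 to 5 for robenacoxib against control, 2 to 4 for carprofen against piroxicam, 0 to 3 for robenacoxib against piroxicam and 0 to 0 for robenacoxib against carprofen. The replicate numbers do not pair the arrays, and with a replicate block robenacoxib against piroxicam gave 1 call (7413 of all probes).

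Direction turned with spike-in scaling for CYB5R3 with carprofen (0.05) and robenacoxib (0.07), for CYP2B11 with carprofen (0.28) and robenacoxib (0.13), and for SULT1A1 with piroxicam (0), carprofen (0.28) and robenacoxib (0.15). SULT1A1 with piroxicam was also 0.01 under normexp with 75th percentile scaling, 0.02 under normexp with quantile normalization and 0.02 in the authors' deposited values. By construction, spike-in scaling adds 1 constant per array; the cause of the other changes was not tested. The planned normexp correction used the median spot signal, chosen after seeing the data, because the mean signal was not among the columns used here. Signals near background limit CYP1A2, and no level could be compared for CYP3A26 and CYP2E1.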
